A study of Mus musculus with 5 samples.

Results

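The matrix metalloproteases (Mmp), the tissue inhibitors of metalloproteases (Timp) and the Adamts proteases with their Adamts-like relatives were followed in sorted cells of the fetal mouse urinary tract. The genes were taken by name, as every row of the deposited table whose symbol starts with Mmp or Timp and a digit or with Adamts. This gave 45 of 18044 genes: 17 Mmp genes, 4 Timp genes, 19 Adamts proteases and 5 Adamts-like genes. Mmp1a, Mmp1b, Mmp3, Mmp7, Mmp10 and Mmp20 have no row under these symbols in the deposited table and were not analysed here. The cells came from the junction of renal pelvis and kidney of C57BL/6 wild-type embryos at E18.5, shortly before birth. Junctions of all embryos were pooled and digested with collagenase, and the cells were sorted by flow cytometry after staining for HCN3, a hyperpolarization-activated cation channel. The design asks how the HCN3-positive cells, which the submitters regard as pacemaker cells of the urinary tract, differ from the HCN3-negative cells of the same tissue. There were 2 libraries labelled HCN3-positive and 3 labelled HCN3-negative, called here labelled positive 1 and 2 and labelled negative 1, 2 and 3. Whether the libraries of a group stem from different pools is not stated, and the p-values therefore measure only the spread between these libraries, which may be technical.

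Between 24588864 and 39034478 reads fell in genes per library. Values are read counts normalized for library size, and a count of 3 reads equals a normalized count of 2.23 to 4.23. Hcn3 itself, the gene of the sorted protein, had normalized counts of 0 in labelled positive 1 and 44.5 in labelled positive 2, against 103, 32.2 and 41.9 in labelled negative 1, 2 and 3. The transcript of the sorted protein was thus not higher in the libraries labelled positive, and directions by label refer to the labels only. The fold change in the authors' deposited table equals, in all 18047 rows of the table, the mean of labelled positive 2, labelled negative 1 and labelled negative 3 divided by the mean of labelled positive 1 and labelled negative 2. That table therefore compares another division of the libraries than the titles do. It was deposited as the comparison of HCN3-negative with HCN3-positive cells, and its groups have 3 and 2 libraries, as the titles have, but its columns do not say which group is which. The groups differ from the titles by an exchange of labelled positive 2 and labelled negative 2, and whether the titles or the table have these libraries exchanged cannot be told from the files. The 2 libraries that the table sets apart may thus be its HCN3-positive group, although Hcn3 was not higher in them, and every value by label below holds for the titles as given. Labelled positive 1 and labelled negative 2 are called the first set below, and the remaining 3 the second set. Both sets hold libraries of both labels, and values are given in the order labelled positive 1 and labelled negative 2 for the first set, then labelled positive 2, labelled negative 1 and labelled negative 3 for the second. The sets also differed in markers of other cell types. Summed normalized counts of 13 leukocyte markers were 558462 and 636873 in the first set and 1328 to 3451 in the second, and 9 markers of fibroblasts and stroma summed to 10387 to 11326 against 94554 to 211695. In these bulk samples, fewer cells of a type and less RNA per cell cannot be told apart.

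Matrix metalloproteases are zinc-dependent enzymes that are made as inactive proforms and, once activated, cleave collagens, gelatins, proteoglycans and other proteins outside the cell. Timps bind the active site of these enzymes and block it, and Timp3, which is held in the matrix, also blocks several Adamts proteases. Adamts proteases are secreted relatives that cut proteoglycans, procollagens or single plasma and cartilage proteins, and Adamts-like proteins resemble them without a protease domain. In the developing kidney and its pelvis, these genes are known for their part in the remodelling of the matrix around branching epithelium, stroma and smooth muscle.

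The promoters of 6 of these genes are shown first, because Mmp13 and Mmp8 were high in the first set while Mmp11, Mmp14, Timp1 and Timp3 were high in the second. Each stretch is the 150 bases before the RefSeq start (GRCm38.p6), 5′ to 3′, and the capitals mark matches to the AP-1 motif TGANTCA, the PU.1 core GAGGAA and the GC box GGGCGG on either strand and to the TATA box TATAAA on the gene's strand. Mmp13 lies at chr9:7272364-7272513 and Mmp8 at chr9:7558279-7558428, both on the plus strand. Mmp11 lies at chr10:75932503-75932652 on the minus strand, and Mmp14 at chr14:54431448-54431597, Timp1 at chrX:20870016-20870165 and Timp3 at chr10:86300262-86300411 on the plus strand.
Mmp13: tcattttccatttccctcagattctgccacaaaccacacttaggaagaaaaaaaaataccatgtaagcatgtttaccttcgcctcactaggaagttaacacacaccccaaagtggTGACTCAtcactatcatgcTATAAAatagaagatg
Mmp8: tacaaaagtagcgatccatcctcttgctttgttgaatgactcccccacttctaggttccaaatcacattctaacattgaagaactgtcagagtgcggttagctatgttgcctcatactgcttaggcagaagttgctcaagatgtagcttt
Mmp11: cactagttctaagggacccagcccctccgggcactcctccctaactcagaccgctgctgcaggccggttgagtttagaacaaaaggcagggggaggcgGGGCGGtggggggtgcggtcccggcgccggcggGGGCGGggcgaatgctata
Mmp14: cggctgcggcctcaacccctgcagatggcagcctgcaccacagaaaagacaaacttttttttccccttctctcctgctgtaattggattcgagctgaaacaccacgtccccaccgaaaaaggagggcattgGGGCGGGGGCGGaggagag
Timp1: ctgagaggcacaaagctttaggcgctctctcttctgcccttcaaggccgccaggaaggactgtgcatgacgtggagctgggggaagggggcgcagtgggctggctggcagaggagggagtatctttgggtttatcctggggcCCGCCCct
Timp3: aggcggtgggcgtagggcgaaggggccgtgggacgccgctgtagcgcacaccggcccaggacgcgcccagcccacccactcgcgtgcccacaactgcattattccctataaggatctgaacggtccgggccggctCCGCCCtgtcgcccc

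Of the 45 genes, 30 had a promoter in the RefSeq table. In the 250 bases before the start, the AP-1 motif stood in 2 of these 30 genes, Mmp13 and Mmp12, against 6.75% of all 32851 promoters of the table. In Mmp13 it starts at position -35, ahead of the TATA box at -16. The PU.1 core stood in 4 of the 30 genes, against 23.3% of all promoters, and in Mmp8 it starts at -219, outside the stretch shown. The GC box stood in 20 of the 30, against 32.7% of all promoters. The 30 genes had 32 promoters, and a gene was counted if any of its promoters matched, whereas the shares of all promoters are per promoter. In Mmp12 the AP-1 motif and the PU.1 core stood in different promoters. By the test below, 14 genes with a promoter were lower in the first set. Of these, 12 had a GC box and 0 the AP-1 motif. Of the 14 with a promoter that were not called, 8 had a GC box and 1 the AP-1 motif. Mmp13 and Mmp8, the 2 called higher that have a promoter, had no GC box, and 2 genes are too few for a comparison. A match is a stretch of letters in this window, and binding of any factor was not measured.

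By label, no member passed the test. The test was limma on log2(normalized count + 1), run on the 16579 genes whose mean reached 5. Its p-values were adjusted by Benjamini-Hochberg and called under 0.05, and 44 of the 45 members entered it, all but Mmp21. It called 0% of all genes higher and 0% lower in the libraries labelled positive, while 157 genes (0.947%) had an unadjusted p under 0.05, none of them a member. DESeq2 called 1 gene higher and 9 lower, with 0 members among them. The log2 difference between labels was above 0 for 14 members and below 0 for 30, against 47.5% and 52.5% of all genes. The median was -0.55, and -0.03 over all genes. With 2 libraries against 3, an exact permutation test cannot give a p under 0.1.

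Adamts18 and Adamts20 were the members whose libraries labelled positive both lay above all 3 labelled negative, a pattern seen in 5.34% of all genes. No member had both libraries labelled positive below all labelled negative, against 5.44% of all genes, and the labels overlapped for 42 members. Adamts18, a secreted protease with roles in organ branching in the mouse, had normalized counts of 142 and 275 in labelled positive 1 and 2 and of 80.2, 103 and 78.1 in labelled negative 1, 2 and 3. The log2 difference was 1.19 (SE 0.66, n = 2 and 3), with an exact 2-sided permutation p of 0.1 and a limma adjusted p of 1.00. Adamts20, a proteoglycanase known from pigment cell migration, had 258 and 234 against 168, 108 and 122. Its log2 difference was 0.91 (SE 0.56, n = 2 and 3), with an exact permutation p of 0.2. Neither difference passed, and leaving out 1 library at a time gave 0.71 to 1.66 for Adamts18 and 0.78 to 1.10 for Adamts20.

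The other members with the smallest unadjusted p by label, among those with a mean of at least 10, had overlapping values in the libraries of both labels. Mmp27, with a mean of 6.48, had reads in labelled positive 1 only and an unadjusted limma p of 0.236. Adamts8, a proteoglycanase, had 1.41 and 171 in labelled positive 1 and 2 and 238, 51.1 and 319 in labelled negative 1, 2 and 3, and its log2 difference was -2.96 (SE 2.03), with an exact permutation p of 0.3. Adamts7, which cleaves cartilage oligomeric matrix protein, had 11.3 and 1195 against 1557, 272 and 1736, with a log2 difference of -2.90 (SE 2.08) and an exact permutation p of 0.5. Adamts19, whose substrate is not well known, had 0 and 132 against 192, 27.7 and 108, with a log2 difference of -2.87 (SE 2.28). In all 3 genes labelled positive 1 was lowest, and without it the difference was 0.11, 0.40 and 0.66. Timp2 had 4638 and 8620 against 10178, 6813 and 10318, with a log2 difference of -0.50 (SE 0.37) and an exact permutation p of 0.3, and leaving out 1 library gave -0.95 to -0.05, the latter without labelled positive 1. Mmp25, a membrane-anchored protease known from leukocytes, had 179 and 50.4 against 39.2, 8.88 and 123, with a log2 difference of 1.39 (SE 1.36). It was 0.49 and 0.45 without labelled positive 1 and labelled negative 2, and 2.30 and 2.27 without labelled positive 2 and labelled negative 3. Mmp19 had 292 and 66.0 against 69.5, 186 and 27.9, with a log2 difference of 0.95 (SE 1.16), and without labelled positive 1 it was -0.11.

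**Figure D1:**
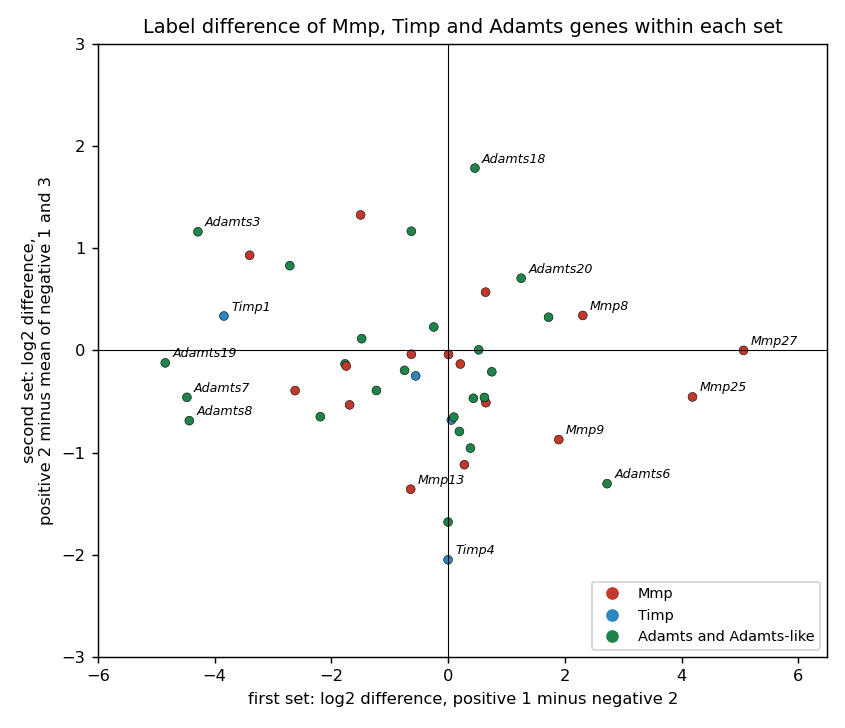
Difference by label within each set. Each point is 1 of the 44 tested members, the x axis gives log2(normalized count + 1) of labelled positive 1 minus labelled negative 2, and the y axis that of labelled positive 2 minus the mean of labelled negative 1 and 3. There were 6 members above 0 on both axes, Adamts18 and Adamts20 among them, 13 below 0 on both and 22 with opposite signs.

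The label difference was also taken within each set, as the plot of the label difference within the sets shows. It was above 0 in both sets for 6 members and below 0 in both for 13, against 21.1% and 25.6% of all genes. It had opposite signs for 22, and was 0 in 1 set for 3. Adamts18 was higher in the library labelled positive by 0.46 in the first set and by 1.78 in the second, on the log2 scale. Adamts20 was higher by 1.25 and 0.71. Adamts7 differed by -4.47 in the first set and by -0.46 in the second, and Adamts8 by -4.43 and -0.69. Mmp8 differed by 2.31 and 0.34, and Mmp9 by 1.90 and -0.87. With the set as a term of the fit, chosen after seeing the data, 0 of all genes passed and 544 (3.28%) had an unadjusted p under 0.05, 1 of them a member, Adamts7. The log2 differences were then 1.22 for Adamts18, 0.94 for Adamts20, -2.18 for Adamts7 and -2.29 for Adamts8. Markers of tubule cells also went with the labels. Summed markers of the collecting duct were 47322 and 21992 in labelled positive 1 and 2 against 12047, 17000 and 7407 in labelled negative 1, 2 and 3, with 3 of 5 markers higher in both libraries labelled positive than in all labelled negative. Those of the proximal tubule were 3913 and 5788 against 8845, 31162 and 16227, with 5 of 5 lower in both than in all labelled negative. None of these markers passed limma by label, 2 and 4 of them had an unadjusted p under 0.05, and their part in the label differences of the members was not tested.

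Between the sets, 3 members were higher in the first set, all of them metalloproteases, and 20 were lower. In the same test with the libraries divided as in the authors' table, 10.6% of all genes were called higher and 9.88% lower. Mmp8, Mmp9 and Mmp13 rose, and all 4 Timps, 8 of the 16 tested Mmp genes, 7 of 19 Adamts proteases and 1 of 5 Adamts-like genes were lower in the first set, while 21 members did not pass. The difference was above 0 for 9 members and below 0 for 35, against 46.5% and 53.5% of all genes, and 30 members had an unadjusted p under 0.05, against 33.4% of all genes. The median log2 difference of the 44 was -1.96, against -0.07 over all genes, and was the same with the members at 0 in one set placed at their bounds. Both libraries of the first set lay below all 3 of the second for 28 members, against 26.1% of all genes, and above them for 4, against 23.5%, so that 32 did not overlap, against 49.6%. In the authors' deposited table, 2 members were higher in the first set at an adjusted p under 0.05, against 8.1% of all genes, and 16 were lower, against 6.09%. Of the 23 members called by limma, 16 were called there too. The 7 not called there were Mmp9, Mmp23, Mmp28, Timp2, Timp4, Adamts1 and Adamtsl2, at adjusted p values of 0.0526 to 0.561. On the recovered reads, edgeR called 17 of the 23 and no other member, against 9.95% of all genes called higher and 7.08% lower. DESeq2 called 22 of the 23 and 6 others, against 13.6% and 13.7%. Labels and sets share the same 5 libraries.

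**Figure D2:**
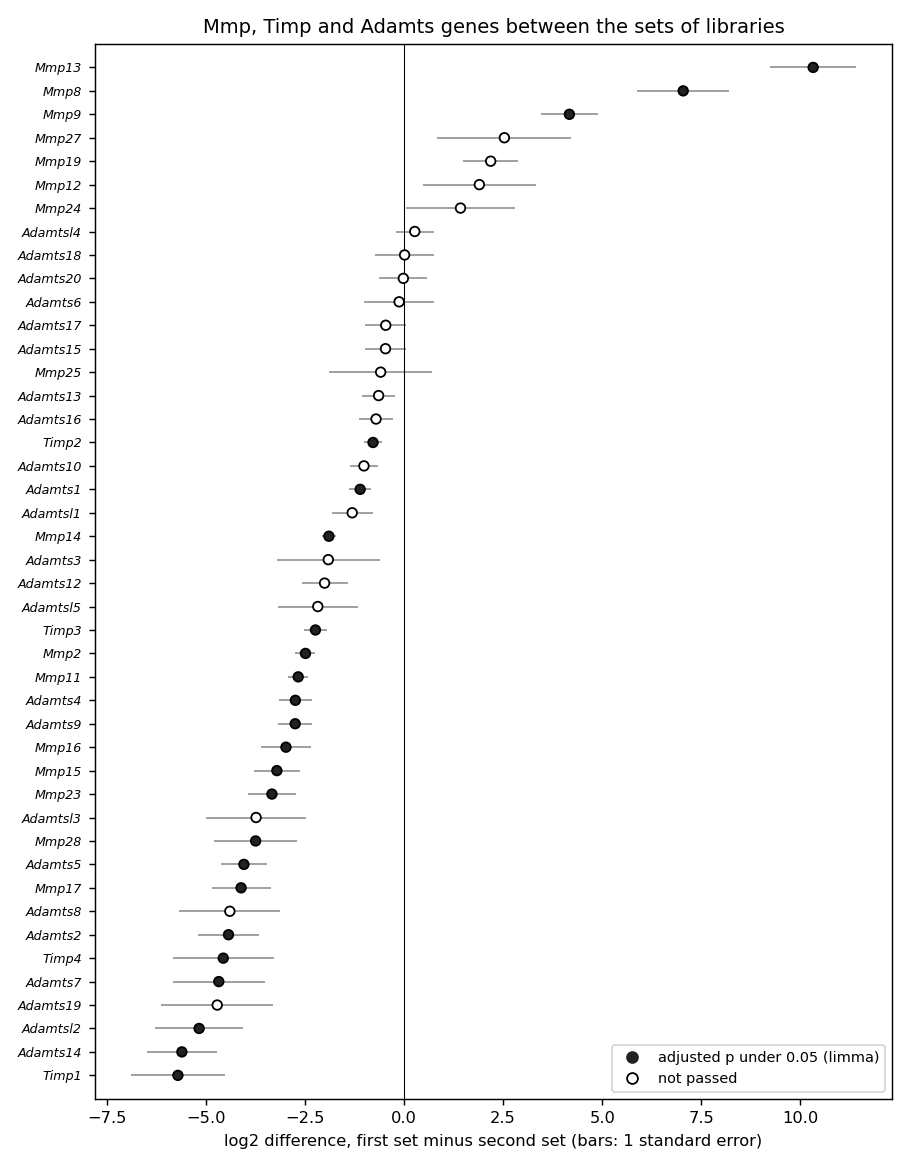
Difference between the sets. Each of the 44 tested members has its log2(normalized count + 1) difference, first set minus second set, on the x axis, with 1 standard error as the bar, and filled points passed limma at an adjusted p of 0.05. Mmp13 stands at 10.32, Mmp8 at 7.04 and Mmp9 at 4.17, and the 20 other filled points lie below 0. Genes with 0 reads in a set have a value that depends on the pseudocount.

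The collagenases cut intact fibrillar collagen, and both that were analysed were higher in the first set. Mmp13, a collagenase known from cartilage and bone (chr9:7272514-7283331, plus strand, GRCm38), had normalized counts of 1921 and 2995 in the first set and 0, 0 and 5.58 in the second. The second set held 6 reads of it in all, in 1 library. The means were 2458 ± 759.5 (SD, n = 2) and 1.86 ± 3.22 (SD, n = 3), a 1321-fold difference with a counting interval of 607 to 3601 from the 6 reads. Without labelled negative 3 it was at least 1004-fold, against a floor of 3 reads per library. The log2 difference was 10.32 (SE 1.09), with a limma adjusted p of 0.00152 and 8.19e-32 in the authors' deposited table. Mmp8, the collagenase of neutrophil granules (chr9:7558456-7568485, plus strand), had 8243 and 1664 against 31.9, 6.24 and 92.1. Labelled positive 1 held by far the most, and the sets did not overlap. The means were 4953 ± 4653 (SD, n = 2) and 43.4 ± 44.1 (SD, n = 3), 114-fold apart, or 38.3-fold without labelled positive 1, 190-fold without labelled negative 2 and 260-fold without labelled negative 3. The log2 difference was 7.04 (SE 1.16), with a limma adjusted p of 0.00744. Without labelled positive 1 the adjusted p of Mmp8 was 0.0838.

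The gelatinases cut denatured collagen and collagen of basement membranes, and they went in opposite directions. Mmp9, known from neutrophils, macrophages and osteoclasts (chr2:164940780-164955850, plus strand), had 4570 and 1226 in the first set and 86.8, 93.6 and 273 in the second. The means were 2898 ± 2364 (SD, n = 2) and 151 ± 105 (SD, n = 3), 19.2-fold apart, or 8.12-fold without labelled positive 1, 30.3-fold without labelled negative 2 and 32.1-fold without labelled negative 3. The log2 difference was 4.17 (SE 0.73), with a limma adjusted p of 0.00902. It was 0.0806 without labelled positive 1, and the authors' deposited table gives 0.0590. Mmp2, the gelatinase of fibroblasts (chr8:92827291-92853420, plus strand), had 1129 and 1747 against 7747, 9364 and 6755. It was 5.53-fold lower in the first set, with means of 1438 ± 437 (SD, n = 2) and 7955 ± 1317 (SD, n = 3), a log2 difference of -2.49 (SE 0.25) and a limma adjusted p of 0.00137. The ratio of Mmp9 to Mmp2, each per kilobase of exon, was 3.86 and 0.669 in the first set and 0.0107, 0.00952 and 0.0384 in the second.

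Beside the rise of these 3 proteases stand the marker lists of blood-derived cells. All 13 leukocyte markers with a row were higher in the first set, and so were 5 of 7 neutrophil markers, S100a8, S100a9, Elane, Ltf and Csf3r. The summed neutrophil markers were 57544 in labelled positive 1, 7532 in labelled negative 2, and 503 to 979 in the second set. Mmp8 and Mmp9 were likewise higher in labelled positive 1 than in labelled negative 2, while Mmp13 was not. None of the leukocyte or neutrophil markers with a row was at 0 in all libraries of a set, none of the 5 mast cell markers passed, and the part of these cells in the 3 proteases was not tested.

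**Figure D3:**
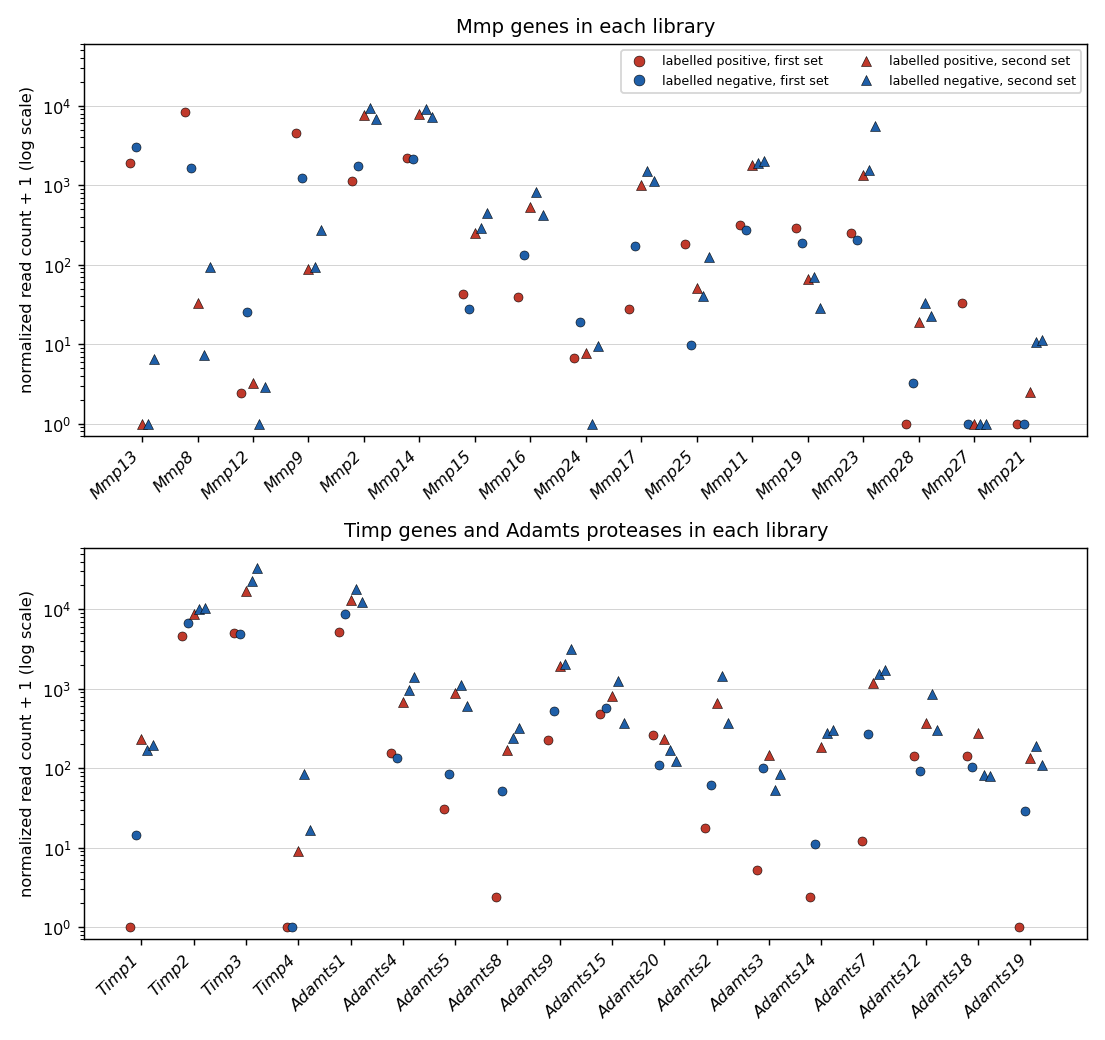
Normalized read counts of the Mmp genes, the Timps and 14 Adamts proteases in each of the 5 libraries, plus 1, on a log scale. Circles are the first set and triangles the second, red the libraries labelled positive and blue those labelled negative. Mmp13, Mmp8 and Mmp9 have both circles on top, and the Timps have both circles below the triangles.

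Mmp27 and Mmp12, which lie in the same cluster of chromosome 9 as Mmp8 and Mmp13, did not pass. Mmp27 had 23 reads in labelled positive 1, a normalized count of 32.4, and 0 reads in each of the other 4 libraries. Its start lies 2.91 kb beyond the end of Mmp8 on the same strand. Mmp12, the elastase of macrophages, had 1.41 and 24.4 in the first set and 2.23, 0 and 1.86 in the second, so that 1 library held nearly all of it. Mmp19, a protease without a close relative in the family, had 292 and 186 against 66.0, 69.5 and 27.9. The sets did not overlap and the means were 239 ± 74.5 (SD, n = 2) and 54.5 ± 23.1 (SD, n = 3), yet the log2 difference of 2.19 (SE 0.69) had a limma adjusted p of 0.0681, and DESeq2 gave 0.00814. Mmp19 shares 789 of its 3533 exon bases with Tmem198b on the opposite strand. Since the library is not stated to keep strand, reads from these shared bases cannot be told apart.

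The membrane-type Mmps work at the cell surface, and 3 of the 4 grouped here as transmembrane membrane-type Mmps were lower in the first set. Mmp14, the activator of pro-Mmp2 (chr14:54431612-54445364, plus strand), had 2182 and 2170 against 7954, 9165 and 7301. Its 2 values in the first set were nearly equal although the labels differ, and it was 3.74-fold lower there, with means of 2176 ± 8.74 (SD, n = 2) and 8140 ± 946 (SD, n = 3), a log2 difference of -1.90 (SE 0.18) and a limma adjusted p of 0.00109. Mmp15 had 42.3 and 26.6 against 251, 289 and 447, a log2 difference of -3.21 (SE 0.58) with a limma adjusted p of 0.0101. Mmp16 had 38.1 and 130 against 524, 811 and 420, a log2 difference of -2.98 (SE 0.64) with a limma adjusted p of 0.0192. That call was lost without labelled positive 1, labelled positive 2 or labelled negative 1, at adjusted p values of 0.0741, 0.0769 and 0.0884. Mmp24 stayed between 0 and 17.8 in every library and did not pass.

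Of the Mmps with a lipid anchor, Mmp17 had 26.8 and 170 in the first set and 993, 1491 and 1141 in the second. The log2 difference was -4.11 (SE 0.74), with a limma adjusted p of 0.0103, or 0.0552 without labelled negative 1. Mmp25 had 179 and 8.88 against 50.4, 39.2 and 123 and overlapped. Mmp11, the stromelysin known from stroma around epithelium (chr10:75923222-75936496, minus strand), had 319 and 275 against 1778, 1894 and 2009. It was 6.38-fold lower in the first set, with means of 297 ± 30.6 (SD, n = 2) and 1894 ± 116 (SD, n = 3), a log2 difference of -2.67 (SE 0.25) and a limma adjusted p of 0.00104. Of the other Mmps, Mmp23 had 247 and 203 against 1351, 1568 and 5496, a log2 difference of -3.33 (SE 0.60) with a limma adjusted p of 0.0102, and the authors' deposited table gives 0.223. Its call was lost without labelled positive 1 or labelled negative 2, at 0.0788 and 0.0752, and with limma-voom, at 0.0793. Mmp28 rested on 2 reads in the first set, with 0 and 2.22 against 17.8, 32.1 and 21.4. The second set was 21.4-fold higher with a counting interval of 5.93 to 177, or 10.7-fold without labelled positive 1 and at least 5.62-fold without labelled negative 2. The limma adjusted p was 0.0479. It did not pass with pseudocounts of 0.5 or 8, with edgeR, DESeq2 or limma-voom, with the label as a term, or without labelled positive 1, labelled positive 2, labelled negative 1 or labelled negative 3, at adjusted p values of 0.0507 to 0.138.

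All 4 inhibitors were lower in the first set by limma, though at very different levels. In the authors' deposited table Timp2 and Timp4 did not pass, at adjusted p values of 0.262 and 0.264. Timp3 (chr10:86300372-86349506, plus strand) had 5080 and 4887 against 17137, 22610 and 33442. It was 4.90-fold lower in the first set, with means of 4983 ± 137 (SD, n = 2) and 24396 ± 8298 (SD, n = 3), a log2 difference of -2.24 (SE 0.28) and a limma adjusted p of 0.00281. It shares 1733 of its 8144 exon bases with Syn3 on the opposite strand, and reads from these shared bases cannot be told apart. Timp2, which both inhibits Mmp2 and helps its activation on the cell surface, had 4638 and 6813 against 8620, 10178 and 10318. It was 1.70-fold lower, with means of 5725 ± 1538 (SD, n = 2) and 9705 ± 943 (SD, n = 3), and the log2 difference of -0.78 (SE 0.22), or -0.51 without labelled positive 1, had a limma adjusted p of 0.0452. That call was lost with TMM scaling at 0.0539, with edgeR and limma-voom, and when any 1 library except labelled negative 2 was left out, at up to 0.230.

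Timp1, the inducible inhibitor (chrX:20870166-20874735, plus strand), had 0 and 13.3 in the first set and 230, 169 and 195 in the second. Its means were 6.66 ± 9.42 (SD, n = 2) and 198 ± 30.4 (SD, n = 3), 29.8-fold apart, or 14.9-fold without labelled positive 1 and at least 46.9-fold without labelled negative 2. The log2 difference of -5.71 (SE 1.19), or -3.79 without labelled positive 1, had a limma adjusted p of 0.0174. It was 0.0572 with edgeR, and 0.0806, 0.0659 and 0.0522 without labelled positive 2, labelled negative 1 and labelled negative 3. The authors' deposited table gives 0.000129. Timp4 had 0 reads in both libraries of the first set and 8.16, 84.6 and 15.8 in the second. It was at least 9.58-fold lower in the first set, taking 3 reads per library as the floor, or at least 3.17-fold without labelled negative 1, which held most of its reads. Its limma adjusted p was 0.0472. It did not pass when any 1 of the 5 libraries was left out (0.0835 to 0.146), with a pseudocount of 8, with a mean of at least 20, with edgeR, with limma-voom or with the label as a term.

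The Adamts proteoglycanases cut versican and aggrecan, and 4 of 7 were lower in the first set. Adamts1 had 5141 and 8620 against 13111, 18030 and 12499, 2.11-fold lower in the first set, with a log2 difference of -1.11 (SE 0.28), or -0.74 without labelled positive 1, and a limma adjusted p of 0.0323. It was 0.0664 with edgeR, and 0.192, 0.0835 and 0.107 without labelled positive 1, labelled positive 2 and labelled negative 1. Adamts4 had 155 and 135 against 676, 975 and 1410, a log2 difference of -2.74 (SE 0.41) with a limma adjusted p of 0.00529. Adamts5, which lies 53.1 kb from Adamts1 on chromosome 16 and has the same strand, had 29.6 and 84.3 against 886, 1114 and 602. The log2 difference was -4.04 (SE 0.58), with a limma adjusted p of 0.00440. Adamts9 had 226 and 529 against 1941, 2039 and 3184, a log2 difference of -2.75 (SE 0.42) with a limma adjusted p of 0.00574, and it shares 1381 exon bases with A730049H05Rik on the opposite strand.

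The other 3 proteoglycanases did not pass. Adamts8 had 1.41 and 51.1 against 171, 238 and 319, with a log2 difference of -4.40 (SE 1.28) and a limma adjusted p of 0.0528, while the authors' deposited table gives 0.00459. It passed with DESeq2, at 0.0238, with a pseudocount of 8, at 0.0276, with the label as a term, at 0.0479, and without labelled negative 2, at 0.0133. Adamts15, its neighbour at 20.1 kb on chromosome 9, had 482 and 572 against 808, 1266 and 375, and Adamts20 had 258 and 108 against 234, 168 and 122. The sets overlapped in both genes.

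The procollagen N-proteinases trim the amino-terminal propeptide of fibrillar collagens, and 2 of 3 were lower in the first set. Adamts14 had 1.41 and 9.99 against 185, 276 and 305, with a log2 difference of -5.61 (SE 0.88) and a limma adjusted p of 0.00613. Adamts2 had 16.9 and 59.9 against 669, 1437 and 374, with a log2 difference of -4.43 (SE 0.78) and a limma adjusted p of 0.00929. Its call was lost without labelled positive 1, at 0.0660, and with limma-voom, at 0.0810. Adamts3 had 4.23 and 101 against 148, 51.7 and 82.8 and overlapped. Of the proteases of cartilage oligomeric matrix protein, Adamts7 had 11.3 and 272 against 1195, 1557 and 1736, a log2 difference of -4.68 (SE 1.16), or -2.44 without labelled positive 1, with a limma adjusted p of 0.0316. It was 0.0929 with edgeR, and 0.0977, 0.106 and 0.0829 without labelled positive 2, labelled negative 1 and labelled negative 3. Adamts12 had 142 and 92.1 against 374, 871 and 304, a log2 difference of -2.01 (SE 0.58) with a limma adjusted p of 0.0523, which was 0.0497 with a pseudocount of 8, 0.0494 with a mean of at least 20 and 0.00369 with DESeq2.

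None of the remaining Adamts proteases passed. Adamts13, which cleaves von Willebrand factor, had 255 and 189 against 276, 349 and 419, and the log2 difference was -0.64 (SE 0.42), with a limma adjusted p of 0.348. Adamts10, tied to fibrillin microfibrils, had 1328 and 1018 against 1507, 2908 and 2945, with a log2 difference of -1.01 (SE 0.35) and a limma adjusted p of 0.0868, or 0.0333 with DESeq2 and 0.0308 without labelled positive 2. Adamts19 had 0 and 27.7 against 132, 192 and 108 with a limma adjusted p of 0.0584, and the authors' deposited table gives 0.0260. It passed with DESeq2, at 0.0477, with a pseudocount of 8, at 0.0258, and without labelled negative 2, at 0.0133. Adamts16 had 798 and 1234 against 2780, 1307 and 1172, Adamts17 141 and 97.7 against 162, 167 and 157, Adamts18 142 and 103 against 275, 80.2 and 78.1, and Adamts6 512 and 76.6 against 118, 347 and 247.

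Among the Adamts-like genes, Adamtsl2, tied to microfibrils and transforming growth factor beta, was lower in the first set. It had 0 reads in both libraries there and 15.6, 33.9 and 80.0 in the second set, at least 11.4-fold lower in the first set, or at least 6.54-fold without labelled negative 3, with a limma adjusted p of 0.0188. The call was lost with limma-voom, at 0.0790, and without labelled positive 1, labelled negative 1, labelled negative 2 or labelled negative 3, at 0.0702, 0.0628, 0.0503 and 0.0626. Adamtsl1 had 197 and 184 against 350, 862 and 353, and its limma adjusted p was 0.128, or 0.0429 with DESeq2. Adamtsl3 had 0 and 5.55 against 49.0, 12.5 and 57.7. Adamtsl4 had 350 and 208 against 203, 288 and 191, and Adamtsl5 35.2 and 9.99 against 104, 197 and 34.4. Mmp21, the member under the mean of 5, had 0 reads in the first set and 1.48, 9.80 and 10.2 in the second.

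**Figure D4:**
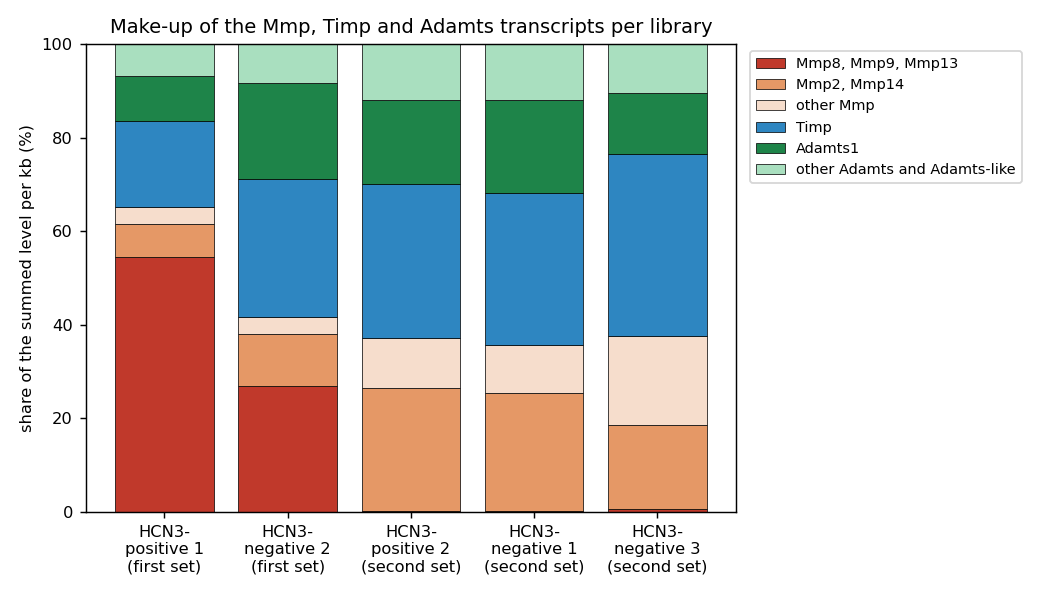
Share of each family in the summed level of the 45 genes, in percent, per library, with levels as normalized counts per kilobase of exon. Mmp8, Mmp9 and Mmp13 make up 54.4% and 26.9% in the first set and 0.169% to 0.651% in the second, where Mmp2 and Mmp14 make up 18.0% to 26.1%.

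Per kilobase of exon, the shares of the Mmp and Timp genes in the summed level differed between the sets, while those of the Adamts and Adamts-like genes overlapped. Mmp8, Mmp9 and Mmp13 made up 83.5% and 64.7% of the Mmp level in the first set and 0.727%, 0.475% and 1.73% in the second. Mmp2 and Mmp14 made up 7.05% and 11.04% of the level of all 45 genes in the first set and 26.1%, 25.1% and 18.0% in the second. The Timps made up 18.3% and 29.6% against 32.9%, 32.6% and 38.8%, and the Adamts proteases 15.5% and 27.9% against 29.1%, 30.8% and 23.0%. The ratio of summed Mmp to summed Timp level per kilobase was 3.57 and 1.41 in the first set and 1.13, 1.09 and 0.969 in the second. Mmp8 had the highest level per kilobase in labelled positive 1, with 34.2% of the total, and Timp2 in labelled negative 2. Adamts1 was highest in labelled positive 2 and labelled negative 1, and Timp3 in labelled negative 3. These shares and ratios were not tested.

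Genes around these proteases were followed in 3 lists of non-members. Of 29 activators, inhibitors, sheddases and clearance receptors, 5 were higher in the first set and 8 lower, against 10.6% and 9.88% of all genes. Reck, a membrane-anchored inhibitor of several Mmps, had 399 and 521 against 2036, 3103 and 2468, a log2 difference of -2.45 with a limma adjusted p of 0.00191. Lrp1, the receptor that clears Mmp and Timp proteins from the surroundings of the cell, had 12667 and 12921 against 2734, 4834 and 2480, a log2 difference of 2.00 with a limma adjusted p of 0.00527, or 0.0581 without labelled positive 1. Adam8, a sheddase known from leukocytes, had 2130 and 690 against 66.8, 76.6 and 102, a log2 difference of 3.89 with a limma adjusted p of 0.00552. Plaur, Adam17 and Cd44 were the other 3 that rose, of which Plaur had an adjusted p of 0.0396 that reached up to 0.245 without 1 library, and Pcsk5, Plat, Serpine2, Serpinh1, Adam12, Pcolce and Bmp1 the other 7 that fell.

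Of 19 substrates with a row, 1 was higher in the first set and 11 were lower, against 10.6% and 9.88% of all genes. Their median log2 difference was -2.85. Spp1, the secreted phosphoprotein osteopontin, had 8840 and 7660 against 3229, 4085 and 2891, a log2 difference of 1.29 with a limma adjusted p of 0.00693, or 0.0681 without labelled positive 1. The 11 that fell were Bgn, Dcn, Lum, Nid1, Tnc, Hspg2, Fbn1, Fbn2, Eln, Postn and Sparc, which encode small proteoglycans, basement membrane proteins and elastic fibre or stromal matrix proteins. Of 15 transcription factors of the AP-1, Ets, PU.1, Runx and NF-kappaB families, 4 were higher and 3 lower, against the same 10.6% and 9.88%. Spi1, which encodes PU.1 of myeloid cells, had 8355 and 8154 against 43.0, 23.2 and 39.1, a log2 difference of 7.88 with a limma adjusted p of 0.000281. Ets1 had 1594 and 1737 against 6618, 9261 and 14562, a log2 difference of -2.53 with a limma adjusted p of 0.00296. Runx1, Nfkb1 and Rela rose beside Spi1, and Ets2 and Etv4 fell beside Ets1. The limma adjusted p was close to the threshold for Nfkb1 (0.0455), Etv4 (0.0455) and Rela (0.030). The adjusted p of Ets2 was 0.0278, and up to 0.147 without 1 library. No Fos or Jun gene passed between the sets. By label, 0 genes of these 3 lists passed limma. Fos, Fosb, Jun and Junb, 4 of the 15 factors, were lower in both libraries labelled positive than in all labelled negative, against 5.44% of all genes. The unadjusted limma p was 0.0194 for Fos, 0.0166 for Fosb, 0.0219 for Jun and 0.0848 for Junb. In each of the other 2 lists 2 genes were lower in both libraries labelled positive than in all labelled negative. The labels overlapped for Fosl2 and Jund. The part of these factors in the differences of the members was not tested.

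Beside the 20 members, and the matrix substrates, that were lower in the first set stand the markers of other cell types there. Dcn and Lum are counted both among the substrates and among the markers of fibroblasts and stroma. In the first set, 8 of 9 markers of fibroblasts and stroma, 7 of 8 of smooth muscle, 5 of 5 of endothelium and 3 of 4 of podocytes were lower, and none of these lists had a marker higher. Summed smooth muscle markers were 3374 to 5569 in the first set and 19979 to 127325 in the second, endothelial markers 4602 to 4806 against 18173 to 65984, and podocyte markers 5930 to 11326 against 30736 to 273711. None of the markers of urothelium, collecting duct, proximal tubule or erythroid cells passed between the sets. The part of these cell types in the differences of the members was not tested.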

How the data were processed

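Libraries were made with Clontech cDNA conversion and Nextera XT, per the labels' protocols. Per the submitters' processing notes, mm10 was the genome build, and the tools include TopHat2 2.0.11 and cutadapt 1.8 as well as HTSeq 0.6.1p2 and DESeq 1.18.0. The gene models counted are not given in the sources used here. Signal columns were deposited as the authors' read counts per gene after division by 1 size factor per library, per the file headers and the values. The authors' fold as a ratio, log2 fold change, p-value and adjusted p-value come with it, per the file headers. The counter's 3 summary rows entered neither library sizes nor tests.

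Dividing by the smallest value above 0 gave whole reads for 100% of the values, within 0.01. Members were tested with limma 3.58.1 and a mean-variance trend (R 4.3.3), after adding a pseudocount of 1 to normalized counts and taking log2, which understates the change of low genes. Low genes, with a mean under 5, were left out. Alternatives on recovered reads were edgeR 4.0.16 with quasi-likelihood, limma-voom, and DESeq2 1.42.0. The intervals of Mmp28 and Mmp13 are exact 95% Poisson intervals of the reads in the lower set. Such intervals and floors cover only counting error, as PCR copies are not independent molecules. All pairs of libraries differed by more than sampling noise, with a chi-square per degree of freedom of 98.3 or more. Scripts were tested on simulated data.

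The sets were derived by matching the deposited fold to ratios of library means, with a tolerance of 0.01, and the next best division matched 8.02% of rows. Labels are the sample titles. Positions and exon lengths are from GENCODE M21 (GRCm38), promoters from RefSeq (GRCm38.p6). Members, gene lists and alternatives were chosen with earlier results of these data known. The rule for names took the Timps, Mmp2, Mmp9, Mmp14, up to 12 members that passed in each direction with a higher group mean of 10 or more, by label the 4 of smallest unadjusted p in each direction among members with a mean of 10 or more, and the highest of each role. All other members were named after their values were seen, and non-members come from the lists.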

Additional observations from a re-analysis of the deposited data

How the results depend on the processing

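Leaving out 1 library at a time gave 782 to 1650 genes higher and 645 to 1722 lower in the first set, and 1 to 4 members higher and 11 to 20 lower, where a group left with 1 library is assumed to vary like the others. The lowest counts came without labelled positive 1 (782 genes and 1 member higher) and without labelled negative 1 (645 genes and 11 members lower). With limma-voom 851 genes were lower and 1750 higher in the first set, against 1638 and 1758. Of the 23 members called between the sets, 10 kept the call under every alternative run: Adamts4, Adamts5, Adamts9, Adamts14, Mmp2, Mmp11, Mmp13, Mmp14, Mmp15 and Timp3. All 23 kept their direction. By label, DESeq2 called 1 gene higher and 9 lower, and the other fits 0. Leaving out 1 library gave log2 differences by label of -0.11 to 2.01 for Mmp19, -6.04 to 0.11 for Adamts8, -6.20 to 0.40 for Adamts7 and -6.40 to 0.66 for Adamts19. Each changed sign without labelled positive 1, -0.11, 0.11, 0.40 and 0.66, and the cause was not tested. The fit with the replicate number as a block called 0 genes and 0 members (26 genes at an unadjusted p under 0.05) and gave 1.11 for Adamts18. Deviations of same-numbered libraries correlated at -0.534 and -0.686. With 2 libraries labelled positive these deviations mirror each other, and same-numbered libraries lie in opposite sets, so the check cannot tell whether the numbers pair the libraries, and no label says that they do. Depth limits Mmp12, Mmp21, Mmp24, Mmp27 and Mmp28, which had few reads, and zeros of Timp4 and Adamtsl2 allow a level up to 3 reads per library.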
